A study of Mus musculus with 9 samples.

Results

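The mRNAs described here encode the initiation and elongation factors of cytoplasmic translation and their regulators. They were the 63 gene symbols, of 24132 in the deposited table, that begin with Eif or Eef followed by a digit, 55 of the first kind and 8 of the second. The measurements came from RIPiT-seq, in which a protein carrying a FLAG and an HA tag was purified through each tag in turn from formaldehyde-fixed cells, and the RNA recovered with it was sequenced. The protein was WDR5, a subunit of MLL histone methyltransferase complexes that can bind RNA. All cells were mouse embryonic stem cells (ESCs) of a 129/B6 F1 hybrid strain, grown without feeders and with LIF.

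The 3 lines differed in the lentivirus they carried. The empty vector line had no tagged WDR5, so its purified RNA measures what the procedure recovers without the bait. The WDR5 WT line expressed FLAG-HA-tagged wild type WDR5. The WDR5 F266A line expressed FLAG-HA-tagged WDR5 in which a phenylalanine was replaced by alanine, from a construct that is also shorter at its N terminus. Per the study's methods the tagged proteins were human, the lines were isolated clones, and the tagged protein was made beside the cells' own mouse WDR5. Each line had 1 input library and 2 IP libraries, 9 libraries in all, and an effect of the line cannot be told apart from one of the clone. Since nothing states that the replicates were separate cultures, p-values measure only the spread between these libraries.

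Translation initiation begins when eIF2, charged with GTP and the initiator tRNA, joins the small ribosomal subunit together with eIF1, eIF1A, eIF3 and eIF5. The cap-binding protein eIF4E, the scaffold eIF4G and the helicase eIF4A bring this complex to the 5′ end of the mRNA, and scanning leads to the start codon. Elongation then depends on eEF1A, which delivers aminoacyl-tRNA, on its exchange factor eEF1B, and on eEF2, which moves the ribosome along. Many mRNAs of this machinery, the elongation factors above all, begin with a 5′ terminal oligopyrimidine tract (TOP, a C followed by a run of pyrimidines), through which mTOR signalling and LARP1 act on their translation. The names also take in regulators: the eIF2 kinases, the eEF2 kinase and the proteins that bind eIF4E.

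The first bases of 6 of these mRNAs are shown because the comparison of WDR5 F266A with the empty vector, described last, concerns mainly eIF3 and TOP members, to which these 6 belong. Each line gives 10 bases before and 20 bases from the transcription start annotated by RefSeq on GRCm38.p6, on the transcribed strand, and capitals mark a run of at least 6 C or T that begins with C within 5 bases of that start.
Eef1a1 (chr9:78481705-78481734, minus strand): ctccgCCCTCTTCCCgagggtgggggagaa
Eif3f (chr7:108934405-108934434, plus strand): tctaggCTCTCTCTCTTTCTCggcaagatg
Eif3l (chr15:79075213-79075242, plus strand): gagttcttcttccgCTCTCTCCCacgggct
Eif3k (chr7:28981869-28981898, minus strand): aaccggcgctggtgctgaaagcgcctttcc
Eef1b2 (chr1:63176821-63176850, plus strand): ctgcagttccgccggaagtagccgaggcct
Eef2 (chr10:81176621-81176650, plus strand): aaggccgggcgttgacgtcagcggtctctt

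Of the 63 members, 49 had such a window, and 9 of these (18.37%) had the run at a start, compared with 11.95% of the 27025 genes in the same table. The 9 were Eef1a1, Eif3f, Eif3l, Eif2b2, Eif2b5, Eif2s3x, Eif2s3y, Eif2ak4 and Eif4g1. The run was 15 bases long in Eif3f, 10 in Eef1a1 and 9 in Eif3l. The windows of Eif3k, Eef1b2 and Eef2 held no such run at the annotated start, which says only that these letters are not in this window. No window was used for Eef1d, Eef1g, Eif3e and Eif3h.

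The values are RPKM as deposited, in which reads are scaled by transcript length and by mapped reads, so that they are per length and can be set side by side between genes. Read depth, estimated from the RPKM that 1 read gives, ranged from 13400000 to 50200000 mapped reads, so that an RPKM of 1 over 1 kb of exons rests on 13.4 to 50.2 reads. The members took 0.487% to 0.883% of all reads. The share of reads on annotated genes was 20.1% to 22.6% in the inputs and 27.2% to 29.5% in the IPs, and the median log2 (RPKM + 1) of the 9787 genes tested was 1.73 to 1.84 in the inputs and 2.10 to 2.13 in the IPs. Members are therefore given both as measured and relative to the median gene. A gene was tested if its RPKM reached 1 in at least 2 libraries. Of the members 57 did, 56 of them in all 9 libraries and Eif2s3y in 5, and the other 6 were Eef1a2, Eef2k, Eif2ak3, Eif4e1b, Eif4e3 and Eif5a2.

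Of the 9 libraries, 1 did not hold the RNA of its own line's other libraries. The summed RPKM of 4 Y-linked genes (Ddx3y, Uty, Kdm5d and Eif2s3y) was 7.42 (input), 9.50 and 9.28 (IPs) in the empty vector line, and 0.228, 0.182 and 0.325 in WDR5 WT. It was 4.43 in the WDR5 F266A input and 7.21 in F266A IP replicate 2, but 0.0383 in F266A IP replicate 1. The summed RPKM of 13 primitive endoderm markers was likewise 59.4 in the F266A input, 75.3 in replicate 2 and 22.3 in replicate 1, against 23.2 to 30.4 in the 6 libraries of the other lines. Gata4, Gata6 and Dab2, which define this cell type, were at 1.91, 0.777 and 3.02 in the F266A input, at 2.69, 0.936 and 5.43 in replicate 2 and at 0.695, 0.0615 and 0.916 in replicate 1. In the 6 libraries of the other lines Gata4 was at 0.0689 to 0.171, Gata6 at 0.0118 to 0.0466 and Dab2 at 0.0728 to 0.261. Replicate 1 thus had a lower sum, led by Sparc, which every line expressed, but was above all 6 in 8 of the 13 markers, and the input was so in 12 and replicate 2 in 13. The 8 ESC markers were present in every library, and their sums were lowest in F266A within each fraction. Their summed RPKM was 416.9 in the F266A input against 461.7 and 500.4 in the other inputs, and 464.4 and 552.7 in the F266A IPs against 564.3 to 678.8 in the other IPs. Single markers went either way. Pou5f1 was at 36.3 and 52.0 in the F266A IPs and at 59.4 to 81.1 in the others, whereas Dppa5a was at 286.9 in F266A IP replicate 2 and at 267.2 and 262.1 in the WT IPs. Markers of mesoderm, neural cells and fibroblasts were low throughout, at summed RPKM of 0.437 to 0.889, 0.842 to 2.66 and 0.451 to 1.58, and those of trophoblast reached 5.40 in WT IP replicate 1.

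The Y-linked member itself carries this pattern. Eif2s3y and its X-linked copy Eif2s3x encode forms of eIF2γ, the subunit that binds GTP and the initiator tRNA. In the empty vector line Eif2s3y had an input level of 3.83 RPKM and IP levels of 4.92 and 4.90. In WDR5 WT it was at 0.155, 0.122 and 0.189. In WDR5 F266A it was at 1.88 in the input, listed at 0 in IP replicate 1 and at 3.74 in replicate 2. The 3 empty vector libraries were thus the highest, all 3 WT libraries were near 0, and the F266A IPs fell on both sides. In bulk RNA, fewer cells with the Y-linked RNA and less of it per cell cannot be told apart. Eif2s3x was at 15.1, 19.1 and 18.4 RPKM in the empty vector, 15.5, 19.7 and 18.2 in WT and 11.4, 16.6 and 15.2 in F266A, so that it was at least 3.75 times as high as Eif2s3y in each of the 8 libraries with a ratio. With F266A IP replicate 1 in the fit, the spread of Eif2s3y was wide and its WT minus empty vector IP difference of −2.36 (SE 0.568) had an adjusted p of 0.560 (limma). Without that library the WT minus F266A difference was −2.04, from 1 F266A IP. Eif2s3y passed the filter only through empty vector and F266A libraries, and replicate 1 was set apart in part by its Y-linked values. These differences therefore describe the libraries and give no test.

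**Figure D1:**
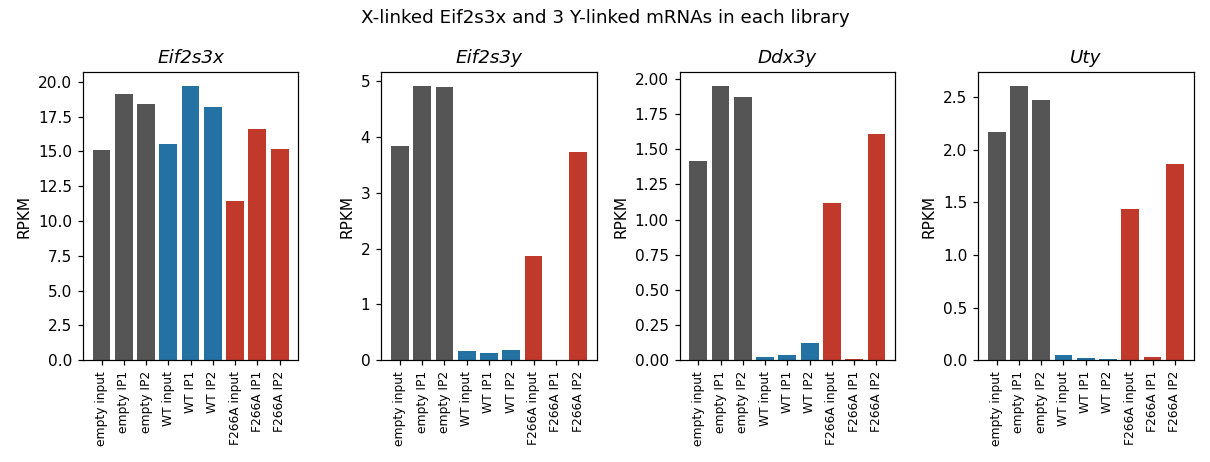
RPKM (vertical axis, linear and starting at 0, a separate scale in each panel) of the X-linked Eif2s3x and of the Y-linked Eif2s3y, Ddx3y and Uty in each of the 9 libraries, 1 bar per library. Eif2s3x is present in all 9, while the Y-linked genes are near 0 in the 3 WT libraries and in F266A IP replicate 1, unlike the input and replicate 2 of the same line.

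The elongation factors were the most abundant of these mRNAs in the inputs. Eef1a1 (chr9:78326256-78336958, mm9) was at 621 RPKM in the input of the empty vector line, 580.3 in that of WT and 453 in that of F266A. Its mean of 552 ranked 7th of all 24132 symbols and was 31.4% of the 1756 RPKM that the members summed to. Eef2, the translocase, had a mean input level of 194.5 and Eef1g, the γ subunit of eEF1B, one of 102.9. With Eif5a these made up the 4 highest members and 52.4% of the sum, and the 7 elongation members together made up 50.87%. The input values of Eef1a1, Eef2 and Eef1g did not overlap one another. In contrast, Eif5a (69.7 to 72.4) and Eif4a1 (61.8 to 78.0), next in order, overlapped and were not separated by these inputs.

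The other subunits of eEF1B were lower and unequal. Eef1b2 and Eef1d, which encode its exchange subunits, had mean input levels of 34.8 and 5.40 RPKM. Eef1e1, which encodes a protein of the aminoacyl-tRNA synthetase complex, was at 3.91. Eef1a2, the eEF1A form of muscle and neurons, was between 0.0195 and 0.111 RPKM in the 9 libraries, and the Eef1a1 to Eef1a2 ratio in the inputs was between 9237 and 13720. Eef2k, the kinase that inhibits eEF2, was between 0.366 and 0.944.

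Among the initiation factors, the eIF3 subunits were the class with the highest sum (276.2 RPKM over 14 members), from 8.19 for Eif3m to 43.0 for Eif3a, which encodes the largest subunit. Their levels were unequal, although the proteins form 1 complex, but the deposited symbols Eif3j1 and Eif3j2 stand for near-identical copies (mean inputs 12.7 and 12.5) between which reads cannot be assigned with certainty. The eIF4A helicases were next in sum, led by Eif4a1, which was between 2.44 and 3.45 times as high as its near copy Eif4a2 in the inputs. Eif4a3, which acts in the exon junction complex rather than in initiation, was at 7.38. The helicase cofactors Eif4b (51.0) and Eif4h (15.3) and the scaffolds Eif4g2 (46.5), Eif4g1 (18.1) and Eif4g3 (4.19) also spanned a wide range, and Eif4g2, whose product lacks the eIF4E site, was at least 2.45 times as high as Eif4g1 in every library.

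The mRNA of the cap-binding protein was not among the abundant ones. Eif4e was at 7.33, 7.91 and 8.33 RPKM in the inputs of the empty vector, WT and F266A. Eif4e2 had a mean of 4.11, Eif4e3 was at or below 0.653 in every library and Eif4e1b, an oocyte form, was listed at 0 in all 3 inputs. The mRNAs of 2 proteins that hold eIF4E in check were higher than Eif4e itself, with means of 40.2 for Eif4ebp2 and 27.8 for Eif4ebp1, while Eif4ebp3 was at 1.86. Of the 744 exonic bases of Eif4ebp3 in mm9, 501 (67.3%) are shared with Ankhd1 on the same strand, so reads of Ankhd1 can count towards it. The 3 inputs of Eif4ebp2 (36.9 to 43.6) and of Eif4ebp1 (23.7 to 32.6) overlapped neither each other nor Eif4e.

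Factors of start codon recognition and of eIF2 were of middle abundance. Eif1 (mean input 25.0), which guards the fidelity of start codon choice, was 16.9 to 20.8 times as high as its copy Eif1b in the inputs. Eif1a (9.21) was 1.65 to 1.99 times as high as the X-linked Eif1ax (4.99) in the inputs. The eIF2 subunits were led by Eif2s2 (28.1), and the 5 subunits of eIF2B, the exchange factor of eIF2, were lower, from 1.50 for Eif2b4 to 7.90 for Eif2b5. Of the eIF2 kinases, which shut initiation down under stress, Eif2ak1 (the haem-regulated kinase) was at 5.40, Eif2ak2 (PKR) at 1.50, Eif2ak4 (GCN2) at 1.12 and Eif2ak3 (PERK) at 0.643. Eif5a was 87.2 to 104 times as high as Eif5a2 in the inputs. In all, 6 members had a mean input level under 1 RPKM, 12 one of 1 to 5, 14 of 5 to 10, 11 of 10 to 20, 14 of 20 to 50, 3 of 50 to 100 and 3 above 100. The median of the tested members was 12.5 RPKM, compared with 2.49 over the 9787 genes tested.

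**Figure D2:**
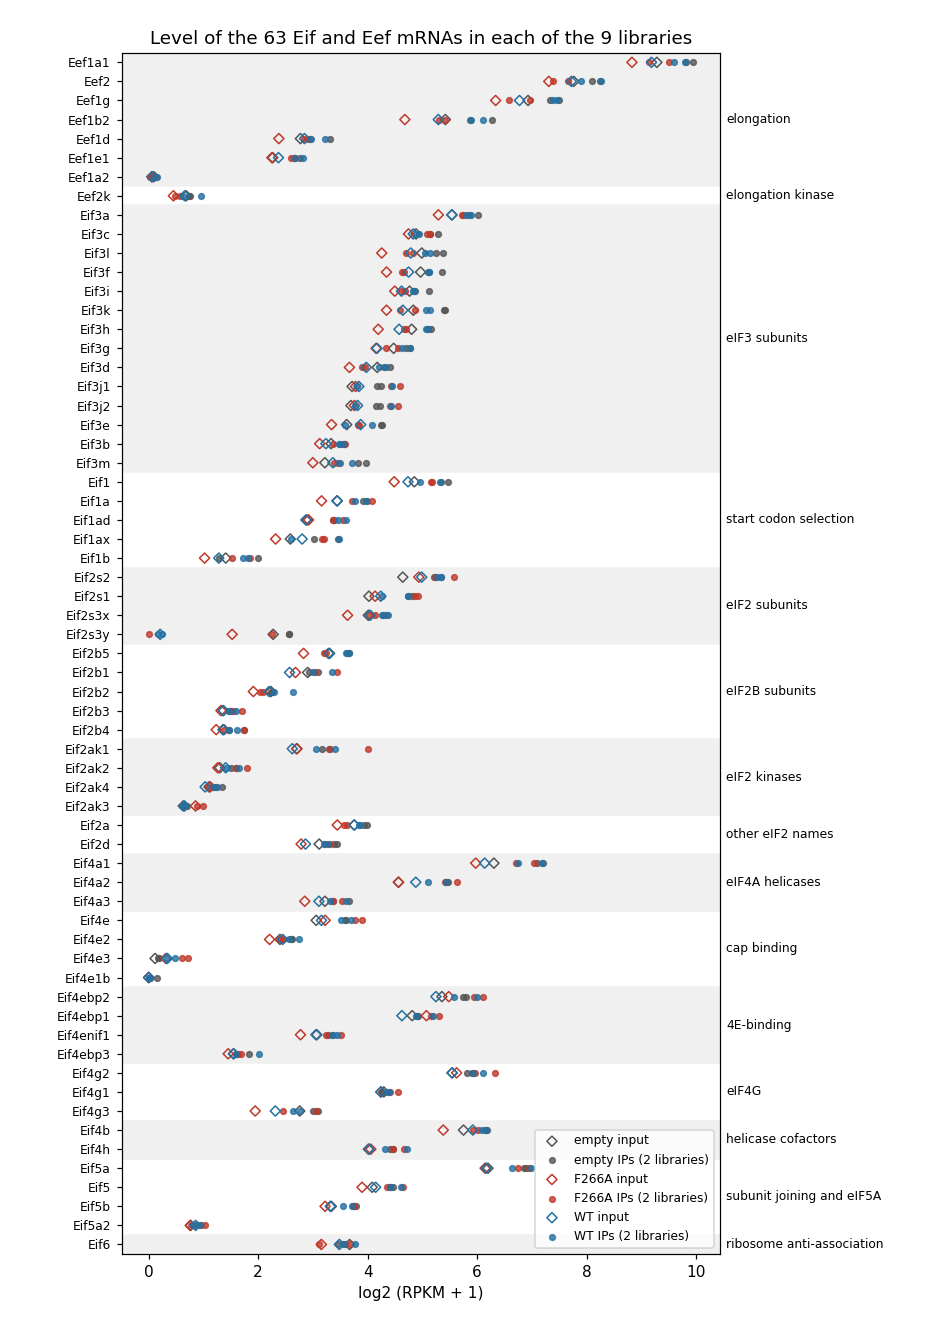
Level of each of the 63 members in the 9 libraries, as log2 (RPKM + 1) on the horizontal axis, grouped by role; open diamonds are inputs (1 per line) and filled circles IPs (2 per line). Eef1a1, Eef2 and Eef1g lie furthest right, most of the eIF2 kinases and eIF2B subunits lie to the left, and the F266A input (red diamond) is the lowest of the 3 diamonds for most elongation and eIF3 members.

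In the IPs the members were nearly all higher than in the inputs, and so were most genes. Over the 3 lines, 49 of the 57 tested members (86.0%) were higher in IP than in input (limma on log2 (RPKM + 1), Benjamini-Hochberg adjusted p under 0.05), against a background of 63.8% of the genes tested, and 0 were lower, against 0.511%. The median IP minus input difference was 0.40 for the members and 0.30 over all genes tested. The tested members had a higher median input level (12.5 RPKM against 2.49), and log2 (RPKM + 1) understates the change of low genes. With a pseudocount of 0.1 the 2 medians were 0.44 and 0.41. Among genes with a mean RPKM of at least 5 they were 0.44 and 0.41, with 93.6% of members and 84.1% of genes higher. In all, 48 of the 57 (84.2%) had each of the 6 IPs above the input of the same line, compared with 66.25% of all genes tested. The 8 members that did not pass the test were Eif2a, Eif2ak4, Eif2b2, Eif2s3y, Eif4ebp1, Eif4ebp3, Eif4g1 and Eif6, with differences between −0.04 and 0.22. With quantile normalization, which forces the libraries to 1 distribution, the counts became 1 higher and 2 lower, with 2.53% and 3.76% of all genes.

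Relative to the median gene, 2 of the 57 tested members (3.51%) were higher in IP than in input, Eif4a1 and Eif5a, and 0 were lower, while 4.67% of all genes tested were higher and 4.32% lower. Their median difference was 0.09, with 40 of 57 above 0, and over all genes tested the median was −0.01. The counts turned on single libraries. Without empty vector IP replicate 1, 0 members were higher, with 1.36% of all genes. Without F266A IP replicate 1, 6 were higher (10.5%, Eif4a1, Eif4a2, Eif5a, Eef1a1, Eef1b2 and Eef1g), with 6.04% of all genes. Without WT IP replicate 2, 10 were higher (17.5%), with 6.73% of all genes. The members' share was thus below the background with all libraries, and above it without F266A IP replicate 1 or without WT IP replicate 2. Without a filter on low values 33 of 63 were higher (52.4%), with 16.3% of all genes. The median is then taken over 20431 genes, whose own median IP minus input difference was 0.10. Expressed genes tend to lie above it through that choice of genes, so this share gives no result about the members.

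Eif4a1 (chr11:69480438-69485925, mm9) encodes the main eIF4A helicase, which unwinds the 5′ end of the mRNA. In the empty vector line its input level was 78.0 RPKM and its IP levels 145.8 and 135.9. In WT it was at 69.3 and then 143.7 and 106.9, and in F266A at 61.8 and then 130.7 and 103.5. All 6 IPs were above all 3 inputs, in the empty vector line as in the others. The enrichment score, log2 (RPKM + 1) of an IP minus that of the input of its line, was 0.84 ± 0.07 in the empty vector, 0.83 ± 0.30 in WT and 0.90 ± 0.24 in F266A (mean ± SD, n = 2 IPs that share 1 input). Relative to the median gene the difference was 0.55 (SE 0.108, limma adjusted p = 0.0201). Its exons share 144 and 143 bases with the annotated snoRNAs SNORA48 and SNORA67 on the same strand, of 4334 exonic bases in mm9, so reads of the snoRNAs can count towards it. The part of the snoRNAs in the difference was not tested.

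Eif5a (chr11:69730216-69735460, mm9), whose product eases the ribosome past stretches that are hard to translate, had an input level of 72.4 RPKM and IP levels of 114.6 and 118.0 in the empty vector line. In WT it was at 70.7 and then 125.8 and 98.5, and in F266A at 69.7 and then 121.7 and 105.8. Here too the 6 IPs lay above the 3 inputs with no overlap. The difference relative to the median gene was 0.36 (SE 0.091, limma adjusted p = 0.0403), and it was no longer called with either empty vector IP left out (adjusted p = 0.0951 and 0.0918), with a pseudocount of 0.1 (0.114) or with quantile normalization (0.0569).

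By role, the differences relative to the median gene were above 0 in 5 of 5 start codon selection members (median 0.25), 3 of 3 eIF4A helicases (0.11 to 0.55) and 6 of 6 tested elongation members (0.02 for Eef2 to 0.37 for Eef1b2). They lay on both sides of 0 in the 14 eIF3 subunits, from −0.11 for Eif3i to 0.19 for Eif3j1, with a median of 0.06. In the eIF2B subunits the median was −0.06. With quantile normalization the 5 start codon selection members and the 3 eIF4A helicases were again all above 0, but only 4 of 6 elongation members, 3 of 14 eIF3 subunits and 27 of all 57 members were. Eif4a2 (0.44, limma adjusted p = 0.0515), Eef1b2 (0.37, 0.0524), Eif1ad (0.25, 0.0644), Eif4e (0.22, 0.0715) and Eif4g1 (−0.20, 0.0884) were nearest to the threshold. The exons of Eif4a2, too, share bases with annotated snoRNAs on the same strand. The lowest values were −0.35 for Eif2s3y (SE 0.393), whose F266A IPs were at 0 and 3.74 RPKM, and −0.22 for Eif6, which keeps the ribosomal subunits apart (SE 0.121, limma adjusted p = 0.263). Without F266A IP replicate 1 the difference was 0.00287 for Eif2s3y, and Eif6 was the lowest at −0.30 (limma adjusted p = 0.0599).

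**Figure D3:**
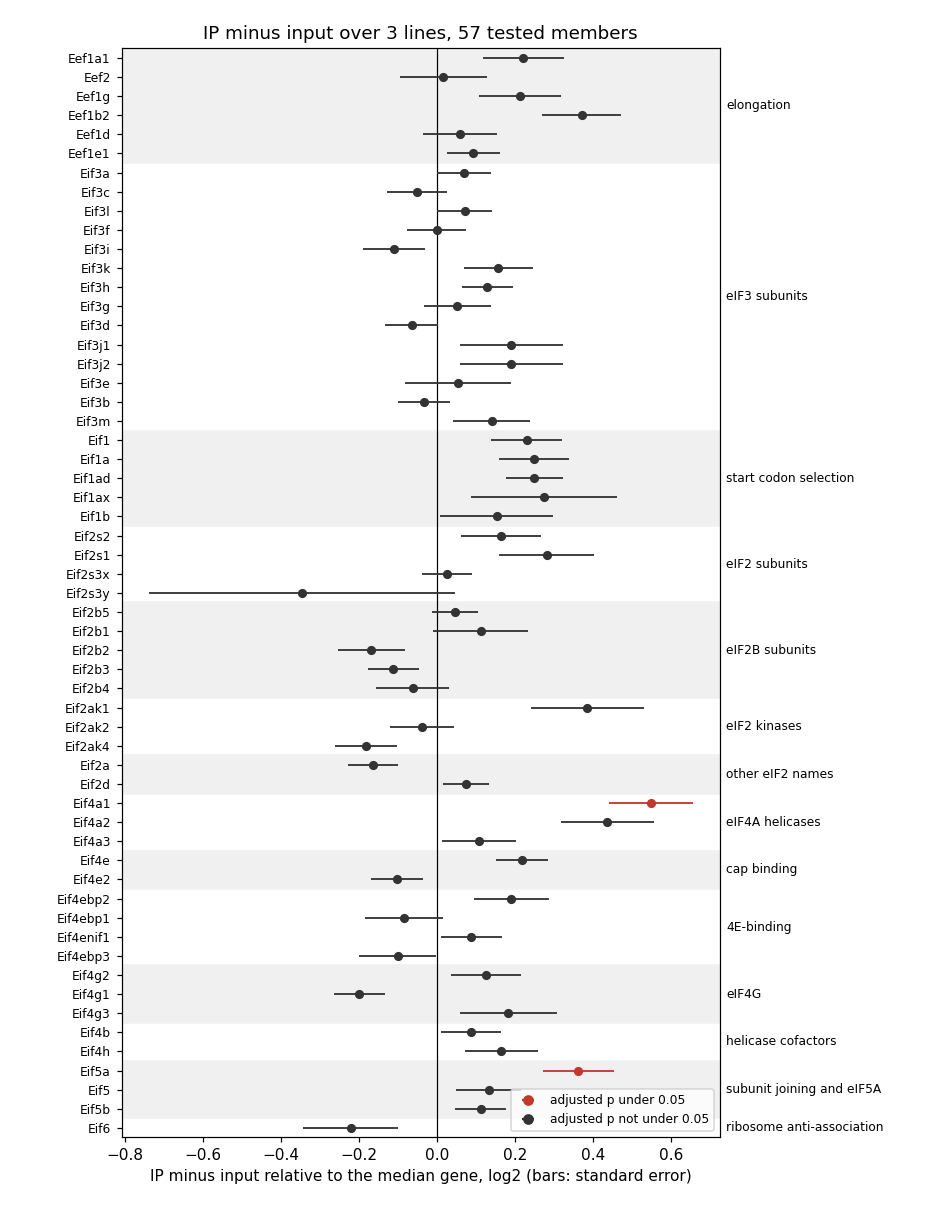
IP minus input over the 3 lines, relative to the median gene, in log2 units on the horizontal axis, for the 57 tested members grouped by role; points are limma estimates from 9 libraries and bars their standard errors. Eif4a1 at 0.55 and Eif5a at 0.36 (red) are the members with an adjusted p under 0.05, most others lie within 0.3 of 0, and Eif2s3y has the widest bar.

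The study asked which RNAs depend on WDR5 and on its RNA-binding surface, and the comparison of enrichment between lines addresses this. Of the 57 tested members, 0 were called in any of the 3 pairwise comparisons of the lines (limma), and the background was also 0% in both directions in each. Taken in the order WT against F266A, WT against empty vector and F266A against empty vector, 0, 1 and 0 members had an unadjusted p under 0.05. The median difference of the members was −0.10 for WT minus F266A, −0.01 for WT minus the empty vector and 0.09 for F266A minus the empty vector, next to −0.09, 0.01 and 0.10 over all genes tested. Each rests on unreplicated inputs, and the median standard error of a member's difference was 0.25, so that differences of this size were not detectable here. The 3 comparisons share libraries with one another.

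By the rule of the study's methods, a gene counts as bound when both WT scores exceed 0 as well as each F266A and each empty vector score. The rule took 2 of the 63 members (3.17%), Eif4ebp1 and Eif3g, and 4.79% of all 24132 symbols. Of all symbols 9787 passed the filter, compared with 57 of the 63 members, and a symbol without reads cannot meet the rule. The shares of members and of all symbols, here and below, therefore rest on unlike sets. Eif4ebp1, which encodes the mTOR target 4E-BP1 (chr8:28370799-28386128, mm9), had WT scores of 0.58 and 0.25, F266A scores of 0.09 and 0.24 and empty vector scores of 0.10 and 0.10. Eif3g, which encodes an RNA-binding eIF3 subunit (chr9:20698796-20703044, mm9), had WT scores of 0.60 and 0.45, F266A scores of 0.41 and 0.18 and empty vector scores of 0.30 and 0.23. The lower WT score of Eif4ebp1 was above the highest control score by 0.02 and that of Eif3g by 0.05. For both genes the 2 WT scores differed by more than either margin. With another line in the place of WT, the same rule took 18 members (28.6%, and 13.6% of all symbols) for F266A and 3 (4.76%, and 3.96%) for the empty vector. The members taken changed with the setting. With a margin of 0.5 the rule took 0, with the mean of the 3 inputs as a common input only Eif2b2, and with scores centred on the median gene Eif3g, Eif3h, Eef1g and Eif1ad (6.35%, and 3% of all symbols). It took 7 members without F266A IP replicate 1 (11.1%, and 8.19% of all symbols), 6 without replicate 2 (9.52%, and 7.03%), 4 and 3 without empty vector IP replicates 1 and 2 (6.35%, and 5.91%, then 4.76%, and 5.98%), and 7 and 10 without WT IP replicates 1 and 2 (11.1%, and 13.9%, then 15.9%, and 13.4%). Leaving out an IP can only loosen this rule, so these counts could not fall, and Eif4ebp1 and Eif3g stayed among those taken by construction.

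Levels in the IPs, which have 2 libraries per line, were compared without the inputs. Between WT and F266A, 0 of the 57 tested members were called, with 11 at an unadjusted p under 0.05, and the background was 0.777% higher and 0.388% lower. Between WT and the empty vector 0 were called, with 3 at an unadjusted p under 0.05, and the background was 0% in both directions. In both comparisons Eif2s3y, at most 0.189 RPKM in WT, had passed the filter only through libraries of the other lines. Between F266A and the empty vector 3 members (5.26%) were lower in F266A and 0 higher, against a background of 3.38% lower and 1.16% higher, and 15 had an unadjusted p under 0.05.

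The 3 members lower in the F266A IPs were Eif3k, Eif3f and Eif3l, which encode subunits with PCI or MPN domains in the structural core of eIF3. Eif3k (chr7:29756392-29766883, mm9) was at 41.5 and 40.9 RPKM in the empty vector IPs, 34.4 and 32.3 in the WT IPs and 23.0 and 28.0 in the F266A IPs. The difference F266A minus empty vector was −0.68 (SE 0.136, limma adjusted p = 0.0392). Both F266A values lay below all 4 others. Eif3f (chr7:116077931-116086465, mm9), one of the TOP members shown above, was at 39.9 and 33.4 in the empty vector, 33.7 and 33.7 in WT and 23.5 and 24.2 in F266A, a difference of −0.59 (SE 0.131, limma adjusted p = 0.0469). Eif3l (chr15:78905653-78924830, mm9) was at 40.6 and 37.1, 32.1 and 34.1, and 25.1 and 27.3, a difference of −0.55 (SE 0.125, limma adjusted p = 0.0493). In both, the F266A IPs were again the lowest pair, without overlap.

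These calls sat close to the threshold and were lost in several alternatives. Leaving out F266A IP replicate 1 gave −0.54, −0.57 and −0.49 for Eif3k, Eif3f and Eif3l with adjusted p of 0.0752, 0.0858 and 0.0994, and leaving out either WT IP, which enters only through the spread, also ended all 3. Leaving out either empty vector IP ended all 3 with adjusted p of 0.190 to 0.406 (limma), and quantile normalization with 0.0693 to 0.105. Without F266A IP replicate 2 Eif3k was called (0.0358) and Eif3f (0.0902) and Eif3l (0.0744) were not. The number of all genes called lower also fell with each IP left out, and with quantile normalization it went from 3.38% to 1.73%. The loss of calls was therefore not particular to these 3 members. The inputs differed in the same direction. Empty vector and F266A inputs were at 27.5 and 19.3 RPKM for Eif3k, 30.2 and 19.3 for Eif3f and 30.7 and 18.1 for Eif3l, with 1 library each and no test. The enrichment difference F266A minus empty vector was −0.19 for Eif3k, 0.03 for Eif3f and 0.18 for Eif3l, none of them called.

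The same direction was seen over the eIF3 subunits and the TOP members. Of 14 eIF3 subunits 12 had a difference F266A minus empty vector below 0, with a median of −0.38, and the exceptions were the copies Eif3j1 and Eif3j2, both at 0.30. All 8 TOP members (Eef1a1, Eef1b2, Eef1d, Eef1g, Eef2, Eif3e, Eif3f and Eif3h) were below 0, with a median of −0.57, and 1 of them, Eif3f, was called. The other 49 tested members had a median of −0.06 and all genes tested one of −0.00497. The TOP list is short and was chosen with earlier results of these data known, and other TOP mRNAs may stand among the 49. The contrast therefore describes the 8 listed members and not TOP mRNAs as a class. The median of the TOP members was −0.44 without F266A IP replicate 1, −0.67 without replicate 2 and −0.37 with quantile normalization, under which 12 of 14 eIF3 subunits and 8 of 8 TOP members were again below 0. Marker genes differed as well, with lower ESC marker sums in F266A. The endoderm marker sum was higher in the F266A input and IP replicate 2 (75.3) but not in IP replicate 1 (22.3). Between the F266A IPs, the summed RPKM of the TOP members was 932.3 in replicate 1 and 1159 in replicate 2. The part of cell types in these values was not tested.

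Eef1b2 had the lowest value among the TOP members. It was at 76.5 and 57.2 RPKM in the empty vector IPs, 67.9 and 58.4 in the WT IPs and 38.7 and 41.4 in the F266A IPs, a difference of −0.71 (SE 0.167, limma adjusted p = 0.0540). In the same order of lines, Eef1g was at 178.9 and 160.5, 173.7 and 167.1, and 94.9 and 123.6. Eef2 was at 302.6 and 271.2, 236.3 and 307.4, and 167.0 and 200.0. Eef1a1, the most abundant member, was at 979 and 898, 770.1 and 882, and 564 and 726. For each of these 4 the F266A IPs were below all 4 other IPs, but none passed the test over all genes (adjusted p of 0.0540 to 0.115).

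Counted over all tested members, both F266A IPs were below both empty vector IPs in 25 of 57 (43.9%), 8 of 8 TOP members and 10 of 14 eIF3 subunits, against 28.6% of all genes tested. They were above both in 12 of 57 (21.1%), against 25.9%. Both F266A IPs were below all 4 other IPs in 20 of 57 (35.1%), 7 of 8 TOP members and 9 of 14 eIF3 subunits, against 17.04% of all genes. The F266A input was the lowest of the 3 inputs in 41 of 57 (71.9%), 8 of 8 TOP members and 12 of 14 eIF3 subunits, against 58.95%. In the inputs, F266A minus empty vector had a median of −0.52 over the TOP members, −0.27 over the tested members and −0.12 over all genes, and F266A minus WT had medians of −0.42, −0.24 and −0.11. The median of the TOP members was therefore lower in F266A before the purification as well as after it. Of the 13 endoderm markers 12 in the F266A input, 8 in IP replicate 1 and 13 in replicate 2 were above all libraries of the other lines. Of the 8 ESC markers 7, 6 and 5 were below all libraries of the same fraction in the other lines.

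The 19 tested members with a difference above 0, 15 without F266A IP replicate 1, included 3 of 4 members that bind eIF4E, 2 of 3 eIF4G members and 2 of 3 tested eIF2 kinases. Eif2ak1 had the highest F266A minus empty vector IP difference, 0.43 (SE 0.224, limma adjusted p = 0.321), and its F266A IPs were far apart at 15.1 and 8.92 RPKM. Without F266A IP replicate 1 its difference was 0.08, and Eif4ebp1 had the highest, 0.40. Eif4ebp1 (0.32), Eif4g2 (0.28), Eif4ebp2 (0.25), Eif4e (0.24) and Eif4g1 (0.21) were also above 0, and none of them passed the test. Eif2s3y had the lowest, −1.44 (SE 0.568, limma adjusted p = 0.203), with the F266A IPs at 0 and 3.74. Without replicate 1 it was −0.32, and Eef1b2 had the lowest, −0.66. Members with the pyrimidine run at the annotated start had differences below 0 in 8 of 9, with a median of −0.41, and tested members with a window but no run in 22 of 36, with a median of −0.06. Eif3k belongs to the second kind, and Eif3f and Eif3l to the first. The first kind also holds Eif2s3y, and Eif2ak4, where another annotated start had no run. The second holds the TOP members Eef1b2 (−0.71) and Eef2 (−0.65). The same split was not made over all genes tested, and the part of the run in these differences was not tested.

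**Figure D4:**
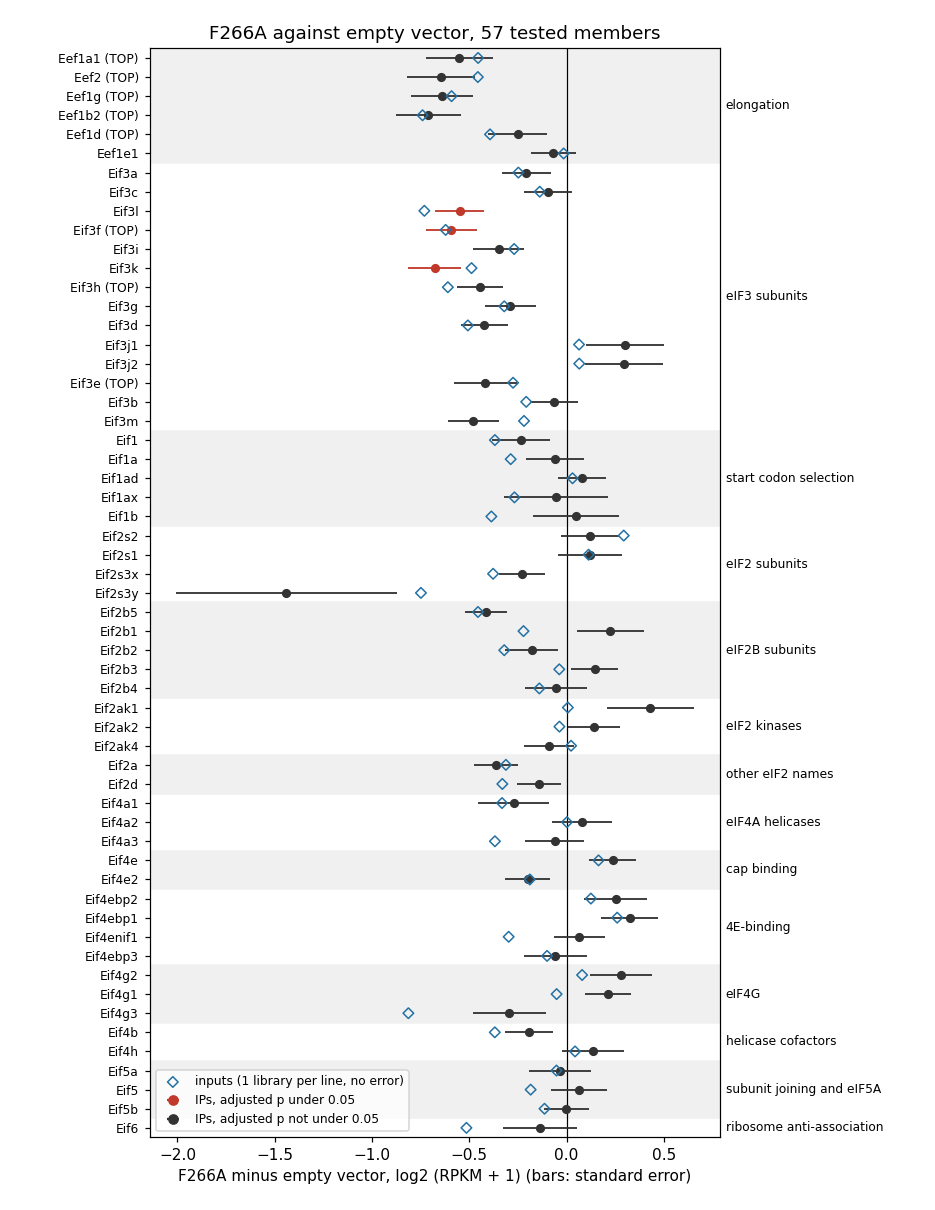
F266A minus empty vector for the 57 tested members, in log2 (RPKM + 1) units on the horizontal axis, grouped by role; circles are limma estimates from 2 IPs per line with standard error bars, and open blue diamonds the difference between the single inputs. The 8 TOP members lie between −0.71 and −0.25, Eif3k, Eif3f and Eif3l (red) have an adjusted p under 0.05, and circles and diamonds of the elongation and eIF3 members mostly lie on the same side of 0.

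The spread between the 2 IPs of a line limits all of these comparisons. Its median size over the tested members was 0.17 in WT, 0.15 in F266A and 0.08 in the empty vector, in log2 units, close to the 0.15, 0.16 and 0.10 of all genes tested. WT IP replicate 1 was above replicate 2 in 40 of the 57. The widest pairs were Eif2s3y in F266A (0 and 3.74 RPKM), Eif1ax in WT (10.1 and 5.04), Eif1b in the empty vector (2.98 and 1.44) and Eif2ak1 in F266A.

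Other genes of translation, chosen as a list of 33 tested genes outside the Eif and Eef names, were measured beside them. They were release and recycling factors, mitochondrial translation factors, scanning and poly(A)-binding proteins, the selenocysteine elongation factor and genes of mTOR and stress signalling. In IP against input 27 of 33 were higher and 0 lower, against 63.8% and 0.511% of all genes tested. Relative to the median gene the background was 4.67% higher and 4.32% lower, and the counts among the 33 were near it. Relative to the median gene 2 were higher, Pdcd4, which inhibits eIF4A (0.53, SE 0.140, limma adjusted p = 0.0473), and the S6 kinase gene Rps6kb2 (0.34, SE 0.065, adjusted p = 0.0169), and 1 was lower, Ppp1r15a, a cofactor of eIF2α dephosphorylation (−0.38, SE 0.082, adjusted p = 0.0256). None of the 33 was called in any comparison between lines, where the background in either direction was 0% to 3.38%. Their median F266A minus empty vector IP difference was 0.03, compared with −0.09 for the tested members. Wdr5 itself, counted at the mouse gene, was at 5.85 to 9.54 RPKM in the inputs and 8.18 to 12.9 in the IPs.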

How the data were processed

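RIPiT-seq libraries of 3 ESC lines (1 input and 2 IPs each) were assigned to line, fraction and replicate from their labels. Per the labels and the study's methods, the authors amplified the RNA with a NuGEN kit, aligned reads to mm9 using TopHat 1.1.3, calculated RPKM per gene with a script of their own and deposited these RPKM for RefSeq symbols. RPKM are not counts, and count tests were not used. Depth was estimated from the lowest step of RPKM times exon length (GENCODE M1, mm9), and covers counting error only.

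For tests across genes, limma 3.58.1 (R 4.3.3) was fitted to log2 (RPKM + 1) of 9787 genes, those whose RPKM reached 1 in 2 or more libraries (lmFit, eBayes with trend, Benjamini-Hochberg adjusted p under 0.05 over all of them), a scale that understates the change of low genes. IP minus input was fitted to all 9 libraries with line as an additive term, also after centring each library on its median over the genes tested. Its spread mixes differences between the lines with those between the 2 IPs of a line, which count as separate libraries. Lines were compared with 1 coefficient per line and fraction, where the spread comes from the 3 pairs of IPs. The fits were also run on simulated data with independent noise in each library. Such data hold no variation shared by the libraries of a line, so that run does not show how well the fits suit these libraries. Other steps used Python 3.11.15. Start windows came from the RefSeq promoter table of GRCm38.p6 and positions of genes from GENCODE M1.

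Named genes were, by rule, the highest member of each role, the members called in a comparison, listed sets of paralogues, the members that met the study's rule and 8 members listed as TOP mRNAs. Eif3m, Eif3i, Eif3j1, Eif3j2, Eif6, Eif1ad, Eif1ax and others given with single values were added for their values. The members and lists were chosen with earlier results of these data known. Replicate numbers are shared between lines, but same-numbered IPs deviated together with r of 0.258 (WT and F266A), 0.112 (WT and empty vector) and 0.0116 (F266A and empty vector) over 9787 genes, so the numbers were not taken to pair the libraries. Alternatives were another pseudocount, 2 other filters, quantile normalization, eBayes without trend, a replicate block, another model and leaving out each IP or line. The paper's ChIP-seq, microarray and qPCR data were not analysed here.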

Additional observations from a re-analysis of the deposited data

How the results depend on the processing

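The enrichment comparisons between lines gave 0 members under every alternative run. IP minus input stayed at 35 to 49 members higher and 0 lower, except with quantile normalization (1 higher, 2 lower). The share of all genes higher ranged from 25.4% (no filter) to 84.1% (mean RPKM of at least 5). With quantile normalization it was 2.53%, with 3.76% lower. Relative to the median gene, the 2 members higher became 1 with a pseudocount of 0.1, 33 without a filter (63 members tested), 1 with a mean RPKM of at least 5, 1 with quantile normalization, 6 with the replicate block, 0 with 1 coefficient per line and fraction, 0 without the empty vector line, 0 without the F266A line and 1 without the WT line, and ranged from 0 to 10 when single IPs were left out. The count lower, 0, became 1 with a pseudocount of 0.1, 2 without a filter, 2 with a mean RPKM of at least 5 and 2 with quantile normalization, and 0 to 1 without single IPs. The share of all genes higher on this measure ran from 0.153% (without the empty vector line) to 16.3% (no filter). The share lower ran from 0.0204% to 31.3%, again without the empty vector line and with no filter. IP levels of WT against F266A and of WT against the empty vector each gave 0 to 1 without single IPs. For F266A against the empty vector, the count of 3 members lower became 0 without a filter (0.00979% of all genes) and 6 with a mean RPKM of at least 5 (7.73%). It became 1 with quantile normalization (1.73% of all genes), Eef1b2, with Eif3k, Eif3f and Eif3l all lost, and 4 with the replicate block (4.42%). Leaving out single IPs also changed the calls, as given above. The study's rule took 1 member with a common input (4.37% of all symbols), 4 with centred scores (3%) and 0 with a margin of 0.5 (0.0456%). Leaving out single IPs, which can only loosen the rule, gave 3 to 10 members (5.91% to 13.9% of all symbols). The direction of the 5 members named in these tests did not change under any alternative run for them, and the causes of these changes were not tested. The replicate block changed no other count by more than 1.5 times. Members under an RPKM of 1 rest on few reads, and each input is a single library.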
